A study of Schmidtea mediterranea with 171 samples.

Results

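In the planarian head, 12 of the 67983 transcripts counted were common in single X1 cells and nearly absent from single X2 cells. Each had at least 1 read in 48 to 89 of 96 single X1 cells and in 3 or fewer of 72 single X2 cells. None of them was among the 48 transcripts that could be paired with a gene name of the study. That pairing did not cover every gene the study names. They were selected on these counts of cells with reads, so the gap between single X1 and single X2 cells is given as a description. The 3 tube libraries were not used in the choice and serve as a check. In those libraries the transcripts were not near absent from X2: the 12 summed to 189 reads per 1000000 assigned reads (CPM) in the X2 tube, against 282 and 217 CPM in the X1 tubes, whereas the means of the single cells summed to 281 CPM in X1 and 10.8 CPM in X2.

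All libraries came from *Schmidtea mediterranea* of the asexual clonal CIW4 strain, which was wild type, fed on liver and starved for 1 week. Heads of 30 animals were pooled as amputation fragments, dissociated, stained with Hoechst and sorted by DNA content into X1 cells (over 2C, the gate of cycling stem cells) and X2 cells (under 2C, the gate of their early progeny). Full-length SmartSeq2 cDNA was made from poly-A RNA of 96 single X1 cells, 72 single X2 cells, 2 tubes of 200 X1 cells and 1 tube of 200 X2 cells. The labels do not say which animal a cell came from, so each gate was 1 sample of cells and single cells were not treated as replicates of a condition.

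Neoblasts are the stem cells of planarians and the source of every new cell in the adult body. They carry piwi-1, which encodes an Argonaute protein of the PIWI family that works with small RNAs, and its transcript is the usual marker of neoblasts. X1 cells are lost soon after irradiation and are mostly neoblasts. The study takes X2 cells as early progeny and reports that piwi-1 and piwi-2 levels varied among them. The tubes and the piwi-1 level of each X1 cell address whether the low X2 levels recur in other libraries of the gates and how the transcripts vary among X1 cells.

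The gates differed in depth and content before any of the 12 transcripts was considered. Single X1 cells had 0.813 to 20.2 M assigned reads (median 3.18) and single X2 cells 0.550 to 4.80 M (median 2.7), while the tubes had 18.4, 10.7 and 13.6 M. A median of 5040 transcripts was read per X1 cell and 1894 per X2 cell, and when each cell was thinned to 100000 reads the medians were 2123.5 and 700.5. The stem cell transcripts piwi-1, piwi-2, piwi-3, bruli, vasa-1, vasa-2 and HP1-1 were read in 67 to 96 X1 cells and also in 37 to 72 X2 cells, and piwi-1 itself averaged 408 CPM in X1 and 510 CPM in X2 cells. All 7 stem cell transcripts were therefore read in more than a few cells of both gates.

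Of 1295 transcripts with reads in 48 to 89 X1 cells, the 12 made up 0.927%. The other 1282 transcripts of that band, piwi-1 left out, are used as the comparison set. Transcripts of the band with reads in over 3 X2 cells had them in a median of 22, so the 12 lie at one end of a wide distribution. There were 6 transcripts with reads in 3 X2 cells, 4 with reads in 2, 2 with reads in 1 and 0 with reads in none. Just outside the limit, 11 transcripts of the band had reads in 4 X2 cells and 8 had reads in 5. On the X1 side, 15 transcripts with reads in 44 to 47 X1 cells also had reads in at most 3 X2 cells, and 0 transcripts with reads in over 89 X1 cells did. The mirrored choice, with reads in 36 to 66 X2 cells and in at most 4 X1 cells, found 0 transcripts.

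Within the X1 gate the transcripts were read in a narrow range of 48 to 61 cells (median 54.5). SmedASXL_016567 was read in most, with 61 of 96 X1 cells (63.5%, exact binomial 95% interval 53.1 to 73.1%) and 2 of 72 X2 cells (2.8%, 0.338 to 9.68%). SmedASXL_006735 and SmedASXL_075274 followed with 58 X1 cells each, and 1 and 2 X2 cells. SmedASXL_073996 was nearest the lower limit, with 48 X1 cells (50.0%, 39.6 to 60.4%) and 3 X2 cells (4.17%, 0.868 to 11.7%). The intervals of these shares cover counting error only, and within X1 they overlap for all 12 transcripts.

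A cell with reads sometimes held very few of them. Of 661 pairs of a transcript and an X1 cell with reads, 119 (18.0%) rested on 1 read and 442 (66.9%) on at least 10 reads, with a median of 42. Split by level, 25.4% of the pairs lay under 1 CPM and 53.1% at 10 CPM or more, with the other 21.5% in between. Levels of 10 CPM or more were found in 17 X1 cells for SmedASXL_016598, the lowest number, and in 40 X1 cells for SmedASXL_075274, the highest. Each transcript was thus at 10 CPM or more in a minority of the X1 cells, and absent or at a lower level in the others.

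For SmedASXL_016567 the level in X1 cells ran from 0 through a median of 0.645 CPM to 562 CPM, with a mean of 35.9 ± 81.4 CPM (SD over 96 cells). SmedASXL_014669 ran from 0 through 0.258 to 1135 CPM, with a mean of 38.3 ± 138 CPM. Its 3 highest cells gave 57.6% of its summed CPM, the largest such share, so this mean describes a few cells. SmedASXL_075274 ran from 0 through 0.915 to 160 CPM, with a mean of 20.9 ± 32.7 CPM, and its 3 highest cells gave 21.3%. The SD over X1 cells exceeded the mean in each of the 12. This was not particular to them. It also held for piwi-1 (408 ± 588 CPM), HP1-1 (66.1 ± 72.3 CPM) and the ubiquitous alpha-tubulin (85.5 ± 91.0 CPM), though not for piwi-2 (763 ± 693 CPM). Transcript lengths were not used here, so the levels of different transcripts were not ranked.

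**Figure D1:**
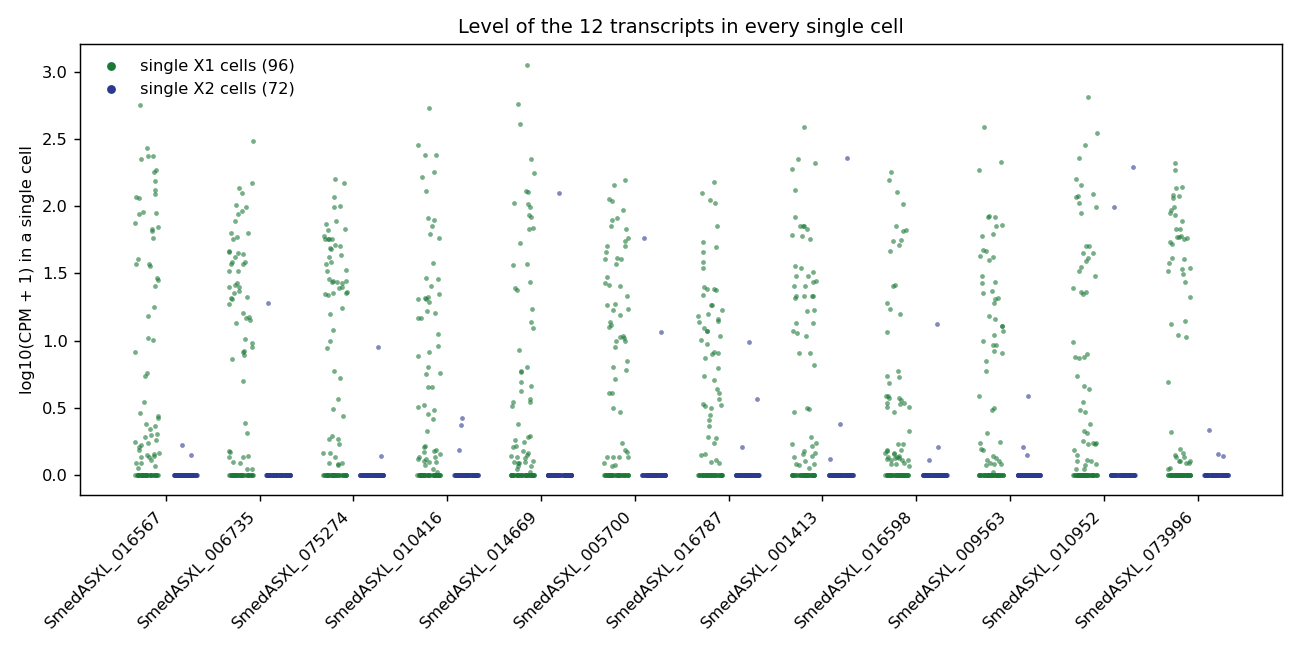
Level of each of the 12 transcripts, as log10(CPM + 1), in every single X1 cell (green) and single X2 cell (blue), 1 point per cell and transcripts ordered by the number of X1 cells with reads. Between 48 and 61 X1 cells have reads, at levels from under 1 CPM to above 10 CPM, while at most 3 X2 cells do.

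The few reads in X2 cells were scattered. There were 28 pairs of a transcript and an X2 cell with reads, in 23 of 72 cells, and 5 cells held 2 of the transcripts, which was the most. Of these pairs 9 rested on 1 read and 11 on at least 10 reads. SmedASXL_016567 had 3 reads in all X2 cells together, and SmedASXL_073996 had 3 reads in 3 cells. SmedASXL_001413 differed: 619 of its 624 X2 reads came from 1 cell, at 227 CPM. SmedASXL_010952 was at 196 and 97.3 CPM in its 2 X2 cells, and SmedASXL_014669 at 124 CPM in its 1. Some single X2 cells therefore held these transcripts at levels within the range of X1 cells, and others at a read or a few. Group 4, the cluster of the study's hierarchical clustering, rebuilt here, that takes both X1 and X2 cells, held 17 X2 cells, of which 5 had reads of any of the 12, against 18 of the 55 X2 cells in the other groups. These counts take a cell from 1 read. Of 8 pairs at 10 CPM or more, both of SmedASXL_010952, that of SmedASXL_006735 and the higher of SmedASXL_005700 lay in Group 4. The others, of SmedASXL_001413, SmedASXL_005700, SmedASXL_014669 and SmedASXL_016598, lay in other groups.

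The tubes of 200 cells asked whether the X2 gate as a whole lacked the transcripts. In 6 of the 12 the X2 tube lay below both X1 tubes, in 4 above both and in 2 between them. Over all 13977 transcripts with a mean of at least 1 CPM in the tubes, the X2 tube lay below both X1 tubes in 35.5% and above both in 28.7%. All 12 had at least 31 reads in the X2 tube. In a tube, fewer cells with a transcript and less of its RNA per cell cannot be told apart.

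The transcripts with the X2 tube lowest had these values. SmedASXL_075274 measured 28.2 and 21.2 CPM in the X1 tubes against 9.71 CPM in the X2 tube (Poisson 95% interval 8.12 to 11.5), a log2 ratio of 1.262 on the scale of CPM + 1. SmedASXL_016787 measured 7.93 and 4.6 CPM against 2.3 CPM (1.549 to 3.24), a log2 ratio of 1.146. Both were more than 2-fold higher in the mean of the X1 tubes and had no overlap of counting intervals between the gates. Nor did the intervals of the 2 X1 tubes overlap each other. They were 25.8 to 30.7 and 18.5 to 24.1 CPM for SmedASXL_075274, and 6.69 to 9.32 and 3.40 to 6.07 CPM for SmedASXL_016787. Such intervals leave out the spread between tubes and set tubes of the same gate apart as well. SmedASXL_073996 measured 42.7 and 29.1 CPM against 20.0, SmedASXL_010952 at 24.6 and 19.2 against 11.9, and SmedASXL_014669 at 20.7 and 23.3 against 13.3. Their log2 ratios were 0.81, 0.83 and 0.68. SmedASXL_001413 was the closest of the 6, with 20.8 and 17.8 CPM against 14.6 CPM, where the intervals of the second X1 tube (15.4 to 20.5) and the X2 tube (12.6 to 16.7) overlapped.

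SmedASXL_006735 and SmedASXL_010416 had the X2 tube between the X1 tubes. The first of these measured 33.2 and 8.81 CPM in the X1 tubes against 9.34 CPM in the X2 tube, and its log2 ratio of 1.09 came from the first X1 tube, since the second gave -0.08. SmedASXL_010416 measured 28.7 and 6.47 CPM against 9.05, with a log2 ratio of 1.562 from the first tube and -0.43 from the second. For these transcripts the 2 X1 tubes differed from each other more than the second of them differed from the X2 tube.

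The remaining 4 were highest in the X2 tube. SmedASXL_005700 measured 14.9 and 16.8 CPM in the X1 tubes against 21.4 CPM (19.0 to 24.0) in the X2 tube. SmedASXL_009563 measured 25.0 and 32.9 CPM against 34.5, and SmedASXL_016598 at 13.4 and 11.2 against 14.3. SmedASXL_016567, read in most X1 cells of all and with 3 reads in the single X2 cells, measured 21.7 and 25.6 CPM in the X1 tubes against 28.7 CPM in the X2 tube. Their log2 ratios ran from -0.41 to -0.21, so none was as much as 2-fold higher in the X2 tube, and for each of the 4 the counting interval of the X2 tube overlapped that of at least 1 X1 tube.

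Over the 12 the median log2 ratio of the X1 tubes over the X2 tube was 0.75 (-0.41 to 1.262), against 0.09 over the 1222 transcripts of the comparison set that reached 1 CPM in the tubes and 0.15 over all transcripts tested. There were 8 of 12 higher in the X1 tubes (57.9% of all tested and 55.0% of those 1222). At least 2-fold higher were 3 of 12 (16.5% of all tested and 7.94% of those 1222). These values rested largely on the first X1 tube: set against the X2 tube alone, the second X1 tube gave a median of 0.10 and 1 transcript at least 2-fold higher (13.3% of all tested), and the first gave 0.80 and 5 (19.6% of all tested). With the second tube the 1 of 12 was below the share over all tested transcripts, a count too small to read as a difference. Over all tested transcripts the medians were -0.07 for the second X1 tube and 0.23 for the first. By edgeR's quasi-likelihood test with Benjamini-Hochberg adjustment 0 of the 12 were called (0% of all tested, with 745 transcripts at an unadjusted p under 0.05), and the lowest unadjusted p among the 12 was 0.105, for SmedASXL_075274, with an adjusted p of 0.998. DESeq2 called 119 transcripts, 113 of them higher in the X1 tubes (0.808% of all tested), and again 0 of the 12. With 2 tubes against 1 the test has 1 residual degree of freedom per transcript, so a missed threshold does not show that the gates were alike. On data simulated with the spread of these tubes edgeR called none of the changed transcripts, so its count among the 12 carries no weight.

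**Figure D2:**
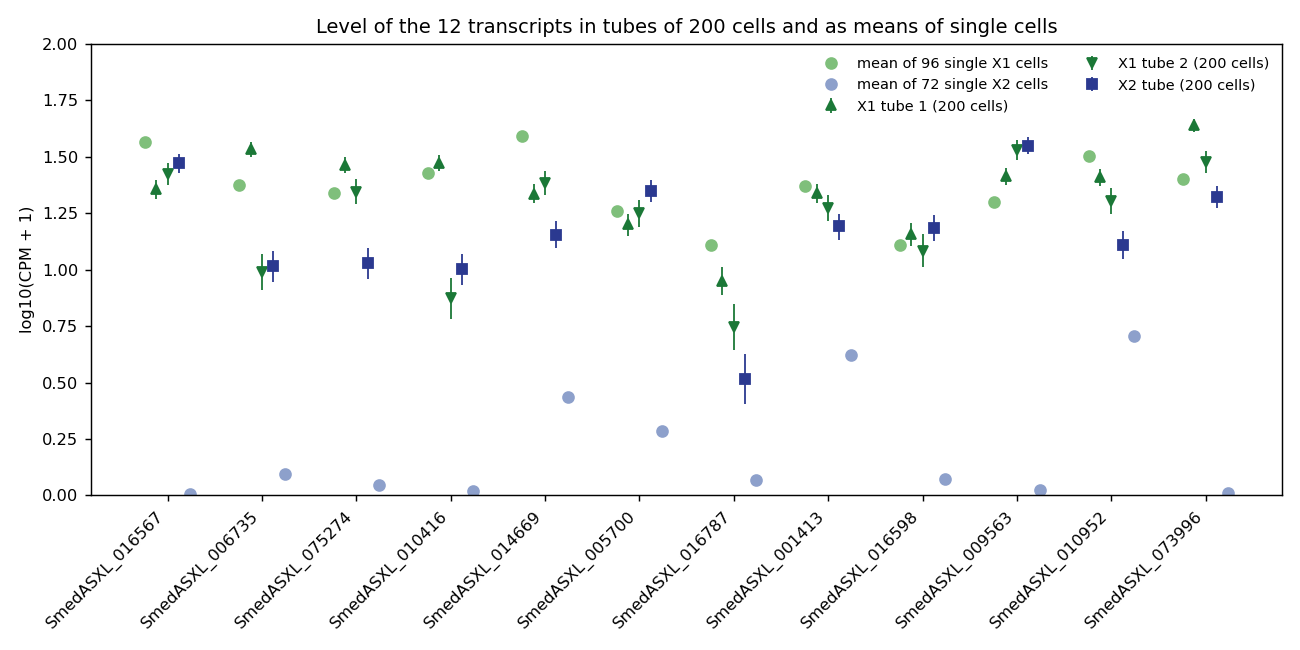
Level of each of the 12 transcripts, as log10(CPM + 1), in the 2 X1 tubes (green triangles) and the X2 tube (blue squares), with Poisson 95% intervals, and as means of 96 single X1 cells (light green) and 72 single X2 cells (light blue). The X2 tube, at 2.3 to 34.5 CPM, lies below both X1 tubes in 6 transcripts, between them in 2 and above both in 4, and above the mean of the single X2 cells in all 12.

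The X2 tube and the single X2 cells thus gave different levels for the same gate. The X2 tube exceeded the mean of single X2 cells by a median log2 of 3.26 (1.348 to 5.07), while the X1 tubes and single X1 cells differed by a median of -0.16 (-0.83 to 0.58). In those 1222 comparison transcripts the same median for X2 was 0.06, and over all tested transcripts it was 0.58. On this scale of CPM + 1 SmedASXL_009563 had the widest gap, with 34.5 CPM in the X2 tube against a mean of 0.0540 CPM in single X2 cells, and SmedASXL_010952 the narrowest, with 11.9 against 4.07 CPM. As a plain ratio of CPM the widest was that of SmedASXL_016567, at 28.7 against 0.0151 CPM. Since the transcripts were chosen for low counts in the single X2 cells, a gap in this direction follows in part from the choice, and its size is a description.

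The mismatch between tube and single cells was not limited to the 12. Across 13977 transcripts, which are not independent replicates, the X2 tube ranked closer to the mean of single X1 cells (Spearman rho 0.67) than to the mean of single X2 cells (0.53), and the 2 X1 tubes correlated with each other at 0.60, below the 0.66 and 0.63 that each had with the X2 tube. Reads assigned to no transcript made up a median of 40.3% in single X2 cells, 17.4% in single X1 cells and 6.14 to 11.3% in the tubes. The part of these differences in the near absence of the 12 transcripts from single X2 cells was not tested.

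When the transcripts of the band that reached 1 CPM in the tubes (the 12, the 1222 and piwi-1) were split by the number of X2 cells with reads, the ratio in tubes ran in the same order as that in single cells but over a much smaller span. The median log2 ratio of single X1 over single X2 cells went from 4.05 for the 12 through 1.542 for 113 transcripts with reads in 4 to 9 X2 cells and 0.60 for 416 with 10 to 19, down to -0.14 for 514 with 20 to 39 and -0.51 for 180 with 40 to 72. The medians in the tubes were 0.75, 0.33, 0.18, 0.04 and -0.13. The 12 stood at the top of both series, in the single cells by their selection, and the 113 transcripts next to them were 12.4% at least 2-fold higher in the X1 tubes. The 11 transcripts with reads in 4 X2 cells, just outside the limit, had a median of 0.32 (-0.87 to 0.93) in the tubes.

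**Figure D3:**
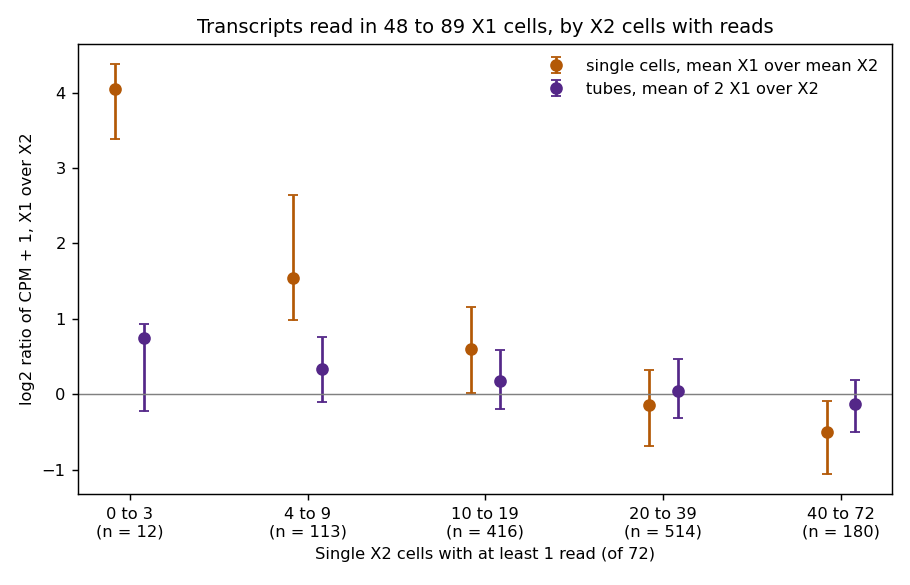
Median log2 ratio of X1 over X2 (CPM + 1) for transcripts with reads in 48 to 89 X1 cells and at least 1 CPM in the tubes, split by the number of single X2 cells with reads, in single cells (orange) and in tubes (purple), with bars from the 25th to the 75th percentile over transcripts. The single-cell ratio goes from 4.05 to -0.51 and the tube ratio from 0.75 to -0.13.

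The second question was how the 12 transcripts varied among X1 cells with the level of piwi-1 (SmedASXL_008653). X1 cells were ordered by piwi-1 CPM and cut into quartiles of 24 cells each, which are ranges of a continuous level and not cell types. The quartiles spanned 0 to 3.16, 3.78 to 220, 228 to 543 and 548 to 3542 CPM of piwi-1, and 3, 9 and 9 cells lay within 20% of the 3 cuts. Of the 24 cells in the lowest quartile, 15 belonged to Group 3 of the rebuilt clustering and 8 had no piwi-1 read.

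By number of transcripts read, the lowest quartile was below the others, and by summed level the upper quartiles were above the lower ones. A median of 5 of the 12 transcripts was read per cell in the lowest quartile, and 8, 8.5 and 7.5 in the next ones, with means of 4.67 ± 1.8, 7.54 ± 2.303, 8.46 ± 1.793 and 6.88 ± 2.5 (SD over 24 cells). Thinned to 100000 reads per cell, the medians were 2, 3, 5.5 and 4. Taken as the share of cells with reads, averaged over transcripts, the 12 went from 38.9% in the lowest quartile to 62.8%, 70.5% and 57.3%, and the comparison set from 55.9% to 65.5%, 71.9% and 65.5%. The 12 thus lay further below the comparison set in the cells lowest in piwi-1 than in the other quartiles. The summed level of the 12 per cell had medians of 115, 112, 260 and 422 CPM and means of 263 ± 331, 132 ± 117, 312 ± 174 and 418 ± 294 CPM. By summed level the lowest quartile was thus not below the second, and the medians went up with piwi-1 from the second quartile to the highest, with a wide spread over cells in each. The number of transcripts of any kind per cell moved less, with medians of 4543.5, 5081.5, 5422.5 and 5081.5, or 2106, 1901.5, 2320.5 and 2165.5 after thinning.

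This dip was spread unevenly over the 12. There were 9 that had fewest cells with reads in the lowest quartile, as did 51.2% of the comparison set. SmedASXL_075274 was read in 3 of 24 cells there (12.5%, exact 95% interval 2.656 to 32.4%) and in 18, 19 and 18 cells of the others, with means of 0.131, 17.3, 34.0 and 32.0 CPM. SmedASXL_016787 was read in 4, 15, 19 and 16 cells, with means of 1.09, 12.3, 14.5 and 19.7 CPM. SmedASXL_005700 was read in 5 cells of the lowest quartile, 21 of the second, 17 of the third and 12 of the highest. Of the 12, these had the fewest cells with reads in the lowest quartile, so they show the far end of the dip. Among the upper quartiles the order differed from one transcript to another.

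SmedASXL_014669, SmedASXL_010416 and SmedASXL_073996 went the other way in number of cells, with 13, 12 and 14 in the lowest quartile and 10, 11 and 11 in the highest. The mean of SmedASXL_014669 was 82.2 ± 253 CPM in the lowest quartile and 43.7 ± 98.3 CPM in the highest, but the medians there were 0.172 and 0 CPM and 1 cell of the lowest quartile reached 1135 CPM. A few cells thus set its means. SmedASXL_073996 was at 35.1 ± 56.1 CPM in the lowest quartile and at 24.7 ± 48.9 CPM in the highest. The mean of SmedASXL_010416 was higher in the highest quartile, at 36.6 ± 76.9 CPM against 27.8 ± 110 CPM in the lowest.

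Counted over the 12, 8 had a higher mean in the highest than in the lowest piwi-1 quartile (57.4% of the comparison set) and 6 were at least 2-fold higher (28.4% of the comparison set), while 0 were at least 2-fold lower. The 6 were SmedASXL_075274, SmedASXL_010952, SmedASXL_016787, SmedASXL_016598, SmedASXL_006735 and SmedASXL_005700. Their log2 ratios ran from 4.86 for SmedASXL_075274 to 1.456 for SmedASXL_005700. The median over the 12 was 0.92 (-0.90 to 4.86), against 0.22 in the comparison set.

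The rank correlation with piwi-1 over the 96 X1 cells was weak. Spearman's rho had a median of 0.21 over the 12 (-0.04 to 0.48) and of 0.11 over the comparison set, and it was above 0 for 11 of the 12 (71.7% of the comparison set). The highest were SmedASXL_075274 at 0.48, SmedASXL_016787 at 0.43, and SmedASXL_009563 and SmedASXL_010952 at 0.34 each. The lowest were SmedASXL_073996 at -0.04, SmedASXL_014669 at 0.00, SmedASXL_010416 at 0.04 and SmedASXL_005700 at 0.14. The cells came from 1 gate of 1 pool of heads, their cDNA was made in strips of tubes and they differ in depth, so these values describe the cells and carry no p. Without the 17 cells of Group 3 the median was 0.13 for the 12 and 0.09 for the comparison set, with SmedASXL_075274 and SmedASXL_016787 at 0.31 each, a setting chosen after the data were seen.

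**Figure D4:**
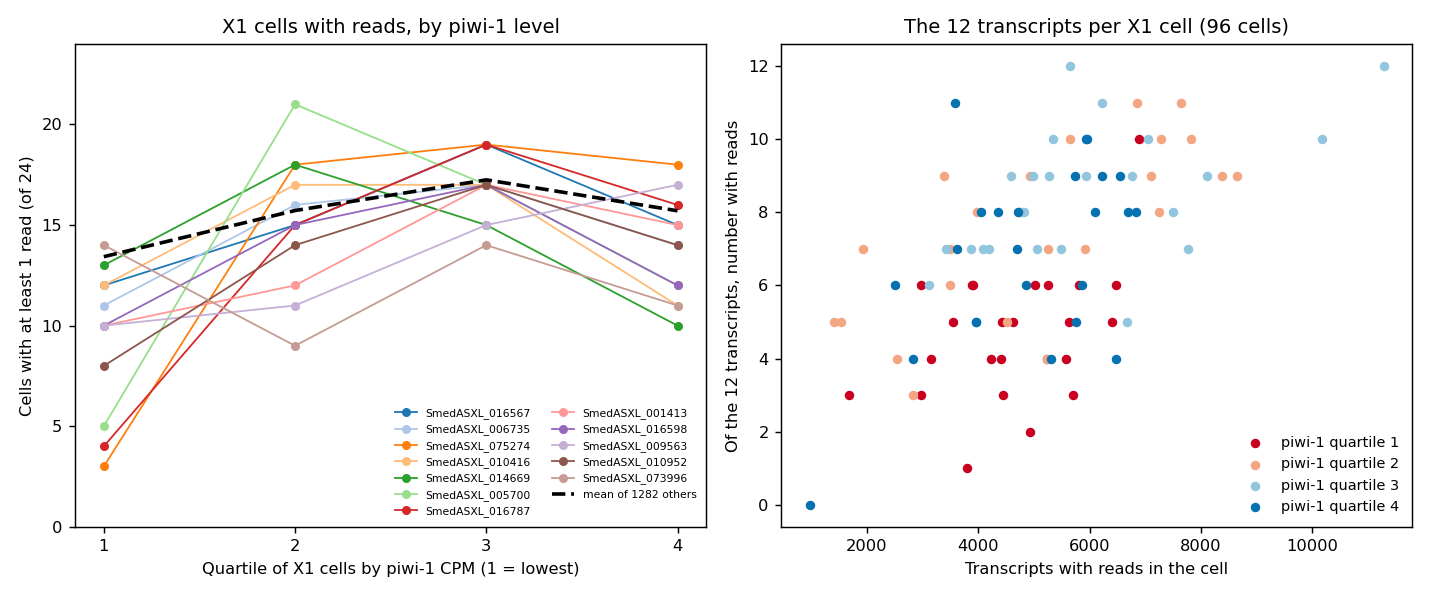
Left, number of X1 cells with reads (of 24) in each quartile of piwi-1 CPM, 1 line per transcript and the mean of the comparison set dashed. Right, number of the 12 transcripts with reads in each of 96 X1 cells against the transcripts of any kind in that cell, coloured by piwi-1 quartile. SmedASXL_075274 goes from 3 cells in the lowest quartile to 18 in the second, and the number of the 12 per cell goes with the number of transcripts in it.

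The 12 did not form a set that was on or off together. An X1 cell held a median of 7 of them (0 to 12), and an X2 cell a median of 0, with 49 of 72 X2 cells holding none. There were 2 X1 cells with all 12 and 1 with none, and that cell had 978 transcripts in all, the fewest of the X1 cells, and the highest piwi-1 level, 3542 CPM. Across X1 cells the number of the 12 with reads went with the number of comparison transcripts (rho 0.65) and of all transcripts (0.55). It also went with piwi-1 (0.40) and with assigned reads (0.35). The number of comparison transcripts had a rho of 0.34 with piwi-1, so such a link was not particular to the 12. With cells thinned to equal depth, the number of the 12 had a rho of 0.46 with piwi-1. Its rho with the number of all transcripts was then 0.34, the reverse of the order without thinning. Among the 66 pairs of the 12, rho over cells had a median of 0.11 (-0.16 to 0.38) against 0.06 in pairs of the comparison set, and 0 pairs reached 0.5. The highest pair was SmedASXL_016787 with SmedASXL_075274.

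Across the clusters of X1 cells, Group 3 held fewest of the 12. The medians per cell were 7 in Group 1 (55 cells), 8 in Group 2 (7 cells), 5 in Group 3 (17 cells) and 9 in Group 4 (17 cells), beside median piwi-1 levels of 195, 656, 0.963 and 480 CPM and 4858, 3581, 4229 and 6468 transcripts per cell. As the share of cells with reads, averaged over transcripts, the 12 had 60.8%, 56.0%, 39.2% and 65.2% in Groups 1 to 4. The comparison set had 66.4%, 51.2%, 51.8% and 77.6%, so it too was lower in Group 3 than in Groups 1 and 4. SmedASXL_075274 was read in 2 of 17 cells of Group 3 and in 16 of 17 cells of Group 4. SmedASXL_010952 averaged 0.341 CPM in Group 3, against 38.6, 53.9 and 27.7 CPM in the others. It is 1 of 3 of the 12, with SmedASXL_014669 and SmedASXL_010416, that belong to the 1000 most variable transcripts behind the clustering, so its difference between clusters is not independent of them. By the running number of the X1 cells, the medians were 6, 6.5, 7.5 and 8.5 for cells 1 to 24, 25 to 48, 49 to 72 and 73 to 96, beside 3518.5, 5243.5, 5304 and 6505.5 transcripts per cell. Which cells shared a strip and what the running number stands for are not stated, and the part of either in these differences was not tested.

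Which transcripts met the limits depended on what counted as a read transcript. A higher minimum can only lower the number of X2 cells, so those of the 12 that left the list did so at the limit on X1 cells. At 2 reads per cell 11 transcripts met the same limits, of which 3 were among the 12, and at 5 reads 2 did, of which 0 were. Thinned to 100000 reads per cell, 0 met them, and the 12 were then read in 21 to 41 X1 cells, under the limit of 48, and in 0 to 2 X2 cells. Without X1 cells 1 to 24, and with the X1 limits scaled to the remaining cells, 40 transcripts did, all 12 included.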

How the data were processed

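Libraries were SmartSeq2 with Nextera XT, without molecular identifiers. The submitters' processing notes name bcl2fastq 1.8.3, Bowtie2 2.2.4 and DESeq2 (no version), and the authors deposited raw counts per SmedASXL transcript, a transcriptome assembly. How reads were counted and how reads matching several transcripts were treated is not given in the sources used here, so transcripts with near-identical copies may share reads. A table of normalized counts was not used here. Reads assigned to no transcript (row shares in the report) were left out of totals and tests. The table holds no columns of comparisons.

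CPM were computed over assigned reads, with a pseudocount of 1 in log2 ratios and tube transcripts kept at a mean of 1 CPM. Tubes were compared with edgeR 4.0.16 (quasi-likelihood, TMM, Benjamini-Hochberg, 0.05) and DESeq2 1.42.0 in R 4.3.3. On simulated data the edgeR script recovered the changed transcripts at a low spread between libraries and none at the spread of these tubes. Nothing says that the tubes came from separate sorts, so their spread may be technical. Size factors, the 1000 most variable transcripts and 10 clusters were rebuilt after the study's methods, and doublets were not called. Thinning used 1 seeded draw. Gene names were paired with 48 transcripts, by identifier in the study's table and code or, for names listed without one, by the listed values. Of 28 names listed for the study's heat map, 22 were paired by their values. Genes named only in its text or figures were not paired, so 1 of them could be among the 12. All 12 transcripts are named, chosen by cells with reads, summed reads, correlation with piwi-1, tube ratio and X2 tube level. The 12 and all lists were chosen with earlier results of these data known. Intervals cover counting error only.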

Additional observations from a re-analysis of the deposited data

How the results depend on the processing

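Of 23 alternative settings, 16 left a value within the spread or within 1.5 times the count, 7 moved it and 0 turned a direction. The 16 include detection at 2 reads per cell, which kept the count at 11 but not the list: 3 of those 11 were among the 12. The number of transcripts meeting the limits went from 12 to 2 at 5 reads per cell, to 0 after thinning to 100000 reads and to 40 without X1 cells 1 to 24. The number at least 2-fold higher in the X1 tubes ranged from 1 to 5 when either X1 tube was left out (13.3% of all tested with the second tube alone and 19.6% with the first), and the median log2 ratio from 0.10 to 0.80, the lower value in each case without the first tube. The number of the 12 read per X1 cell went from a median of 7 to 4 after thinning. DESeq2 and the fit without a filter on low counts (195 of 55691 transcripts called) called 0 of the 12, like edgeR. TMM factors, a pseudocount of 0.1 and the authors' size factors moved no value past those limits. No test was left for single tubes, since 1 tube against 1 has no residual degrees of freedom. No paired analysis was possible because the tubes of the gates share only 1 replicate number and the numbers of single cells are only names. Single-cell shares are limited by depth: 18.0% of the X1 and 9 of 28 X2 values above 0 rest on 1 read.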
